A study of Mus musculus with 2 samples.

Results

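Early suprabasal keratinocytes that make keratin 1 and keratin 10 but little filaggrin were taken from wounded mouse skin by a rule on 3 genes. They were chosen by their measured Krt1, Krt10 and Flg levels. Members were cells of 3 and 5 days after wounding, of both Phgdh genotypes, in which Krt1 and Krt10 together reached at least 5000 CPM (a gene's unique molecular identifiers, or UMIs, scaled to a total of 1000000 per cell or per sum of cells) and Flg stayed below 100 CPM. The rule found 691 of 4897 wounded cells, out of 5666 cells assigned to a condition in the whole capture. The remaining 4206 wounded cells are called the other wounded cells. They comprise 4151 cells below the keratin limit and 55 cells that pass it but carry at least 100 CPM of Flg, called filaggrin-high.

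The series concerns PHGDH, the first enzyme of serine synthesis from glucose, in hair follicle stem cells. The mice were C57B6/J animals of genotype Sox9-CreER;R26-LSL-YFP with Phgdh fl/fl (floxed alleles that the Cre deletes) or Phgdh +/+ (intact alleles). All groups therefore carry the Cre and the reporter, and YFP marks cells that descend from Sox9-expressing cells. The label gives the sex as pooled male and female, and skin was taken 3 or 5 days after wounding, or unwounded. The sort of wounded skin kept live YFP-positive cells with high integrin-α6, a basal surface protein, and left out cells with CD45, CD31, CD117 or CD140a. Unwounded cells were further gated as SCA1-negative, CD34-positive and CD200-positive. Each of the 6 conditions is 1 pool of cells marked by its own hashtag antibody, all in 1 single-cell 3′ capture, and has no replicate. The labels used here do not give the number of mice in a pool, so tests over the 4 wounded pools measure only the spread among those pools.

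The epidermis is built from a basal layer that divides and holds on to the basement membrane through integrins. Cells that leave it switch from keratins 5 and 14 to keratins 1 and 10 and enlarge their desmosomes (the spinous layer), and only later make the filaggrin, loricrin and involucrin of the granular layer and the cornified envelope. Notch receptors and their ligands are known to take part in this switch, and follicle cells that enter a wound can take on this epidermal programme.

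The 4 wounded pools (fl/fl 3 d, +/+ 3 d, fl/fl 5 d, +/+ 5 d) held 31, 105, 276 and 279 members with 1557347, 5197086, 13901294 and 12691634 summed UMIs. Lists of 4 values below run through the pools in that order. A member had a median of 48323, 46876, 45240.5 and 42165 UMIs, against 44386, 40978, 47258 and 36856 in the other wounded cells, so members were deeper in 3 of 4 pools. After thinning every cell to 5000 UMIs, members had a median of 1800, 1744, 1743 and 1751 detected genes, against 1899.5, 1921, 1886.5 and 1893 in the other wounded cells, which is fewer in every pool. Cells called female from Xist made up 33.3% and 15.4% of members in the +/+ pools of 3 and 5 days, and 0 members were called female in the fl/fl pools, so the sexes differ between the genotypes. Over all cells of a wounded pool, those called female were 30.3% and 22.7% in +/+ and 0 in fl/fl. All 8465 barcodes of at least 5000 UMIs are distinct, and doublets that carry 1 hashtag were not looked for.

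Members were a larger part of the wounded cells at 5 days than at 3 days. At 5 days they made up 18.4% of the fl/fl pool (exact 95% binomial interval 16.5 to 20.5) and 18.6% of the +/+ pool (16.6 to 20.6). At 3 days they made up 5.996% of the fl/fl pool (4.11 to 8.40) and 7.60% of the +/+ pool (6.26 to 9.13). The intervals, which cover counting error only, do not overlap between the days and do overlap between the genotypes at each day. Of unwounded cells, 3 of 534 in fl/fl (0.562%) and 1 of 235 in +/+ (0.426%) met the same limits, under the further gate on SCA1, CD34 and CD200 and with medians of 7606.5 and 7455 UMIs over all cells of those pools. The share of members among sorted cells depends on the integrin-α6 gate, whose part in it was not tested.

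The values that chose the members are given as a description. Summed Krt1 and Krt10 lay between 5013 and 95622 CPM with a median of 16289 CPM in members, against a median of 143 CPM in the 4151 cells below the limit. Both keratins were detected in all 691 members, Krt1 at a median of 9104 CPM and Krt10 at a median of 7209 CPM. Krt1 gave 55.6%, 55.7%, 53.2% and 51.8% of the pair's UMIs in the 4 pools, so the partners were nearly even throughout. Free RNA, measured in 65043 barcodes of 100 to 400 UMIs, held 2305 CPM of Krt1 and 1821 CPM of Krt10, in sum below the limit of the rule. A Flg UMI was found in 72 of 691 members (10.4%).

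Cells just inside and just outside the limits carry these values. The 55 cells of 5000 to 6000 CPM of the keratin pair held 4878 CPM of Krt5, 279 CPM of Mt4 and 69.6 CPM of Mki67 in their summed UMIs. The 65 cells of 4000 to 5000 CPM held 5554 CPM of Krt5, 64.4 CPM of Mt4 and 161 CPM of Mki67. Of members, 11 had Flg between 50 and 100 CPM, and 15 filaggrin-high cells had it between 100 and 200 CPM. With the keratin limit at 2500 CPM the share of members was 23.4% and 23.5% in the fl/fl and +/+ pools of 5 days, and 10.2% in the +/+ pool of 3 days.

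**Figure D1:**
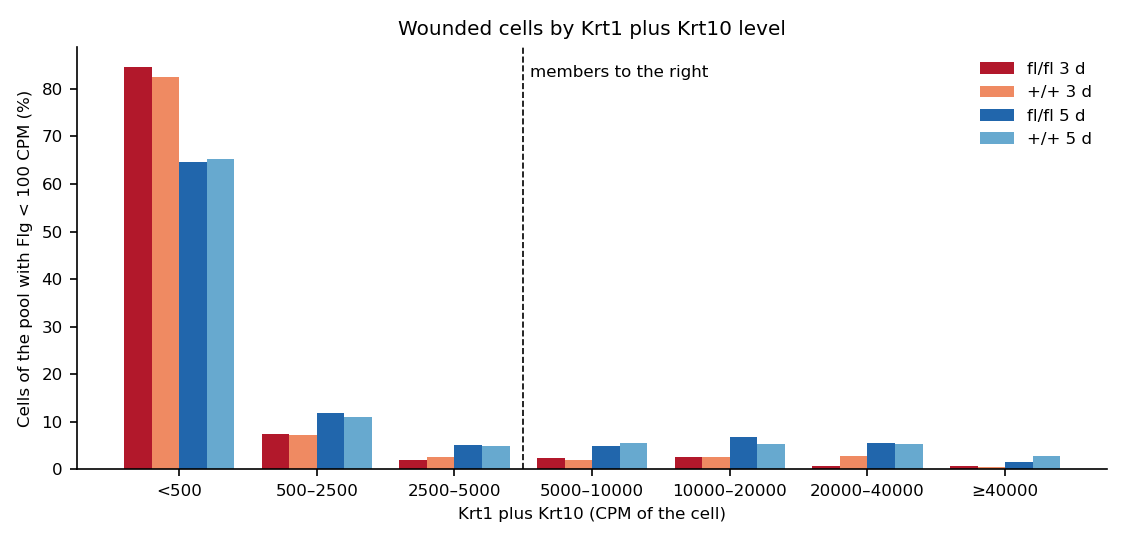
Percent of each wounded pool's cells with Flg below 100 CPM that lie in 7 ranges of Krt1 plus Krt10 CPM, as bars of 4 pools (fl/fl 3 d, +/+ 3 d, fl/fl 5 d, +/+ 5 d). Bars right of the dashed line at 5000 CPM are the members, and in each of these ranges both bars of 5 days stand above both bars of 3 days.

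Beyond the 3 genes of the rule, members differed from the other wounded cells in a large part of the transcriptome. UMIs were summed per pool and class, and each gene was tested with edgeR's quasi-likelihood test with the pool as a block, with Benjamini-Hochberg adjustment over 13273 genes and an adjusted p under 0.05 as the threshold. Of all genes tested 46.5% passed, 22.2% as higher in members (2949) and 24.3% as lower (3227), 564 and 1419 of them by 2-fold or more. With plain library totals in place of TMM factors the split was 1620 higher and 5031 lower, because TMM adds 0.205 to each log2 ratio of CPM values in this comparison. Counts of a gene list are to be read against these shares, and the ranges over the 4 pools did not overlap for 45.2% of genes. Adjusted p-values below come from this edgeR test unless another is named.

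Genes known from the first suprabasal layers were higher in members, apart from the genes of the rule. Of 18 early suprabasal genes tested, 15 rose and 0 fell (median log2 fold 0.94, against -0.01 for all genes). Krtdap, a keratinocyte differentiation protein, had 5572, 5599.7, 4545 and 5142 CPM in members, against 3324, 3022, 2780.4 and 2809.8 CPM in the other wounded cells. Every pool of members lay above every pool of the other cells, a log2 fold of 1.01 ± 0.05 (SE, n = 4 pools, edgeR adjusted p = 5.84e-06). Calm4, a calmodulin-like calcium-binding protein, had 3892, 4408, 2347 and 3244 CPM in members, against 356, 600.4, 360.5 and 534 CPM in the other wounded cells (log2 fold 3.11 ± 0.13). The suprabasal desmosomal cadherins did the same. Dsg1a, whose reads may be shared with its near-identical copies, had 381, 383, 338 and 359 CPM in members, against 47.5, 67.6, 63.1 and 73.3 CPM in the other wounded cells (log2 fold 2.75 ± 0.11). Dsc1 had 151, 156, 135 and 132 CPM in members, against 20.9, 34.1, 17.8 and 24.6 CPM in the other wounded cells (log2 fold 2.79 ± 0.12). Fabp5, a fatty acid carrier, and Lgals7, an epithelial galectin, were the most abundant of those named here. Fabp5 had 37338 to 43212 CPM in members, against 12934 to 22505 CPM in the other wounded cells, and Lgals7 had 16266 to 19240.4 CPM in members, against 8403 to 10133 CPM in the other wounded cells. Sbsn, suprabasin, was an exception with 1077, 1116, 725 and 876 CPM in members, against 1261, 1389.99, 544 and 612 CPM in the other wounded cells, lower in members at 3 days and higher at 5 days (edgeR adjusted p = 0.092, but 0.0402 without the +/+ pool of 3 days and 0.042 without the fl/fl pool of 3 days), and Lypd3 and Serpinb2 did not pass either.

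The largest fold of the genes named here outside the rule was that of Mt4, the metallothionein of stratified squamous epithelium, which binds zinc and copper. It had 581, 756, 1199.9 and 637 CPM in members, against 14.8, 37.6, 40.6 and 28.1 CPM in the other wounded cells. No pool of members overlapped the other cells, and the log2 fold was 4.94 ± 0.15 (SE, n = 4 pools, edgeR adjusted p = 6.51e-07). The 250 bases before the RefSeq start of Mt4 (GRCm38.p6, chr8:94136954-94137203, plus strand) are shown because of this fold, with those of Krt10 (chr11:99389365-99389614, minus strand), a keratin of the rule. Capitals mark matches, on either strand, to TGCNCNC, a pattern looser than the metal response element core. A match to it need not fit that core.
Mt4: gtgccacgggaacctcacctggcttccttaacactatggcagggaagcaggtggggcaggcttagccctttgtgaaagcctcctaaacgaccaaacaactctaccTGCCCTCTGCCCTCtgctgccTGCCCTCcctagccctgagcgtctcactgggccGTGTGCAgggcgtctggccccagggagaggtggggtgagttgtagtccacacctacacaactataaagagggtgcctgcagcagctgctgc
Krt10: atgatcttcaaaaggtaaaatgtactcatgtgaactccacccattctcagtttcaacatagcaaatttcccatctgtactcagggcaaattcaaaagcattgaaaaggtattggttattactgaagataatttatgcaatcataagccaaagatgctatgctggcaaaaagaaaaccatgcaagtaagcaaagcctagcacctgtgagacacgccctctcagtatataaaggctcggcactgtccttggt
The Mt4 window holds 4 matches, at 145, 138, 124 and 91 bases before the start, and the Krt10 window holds 0. The window of Calm4, searched in the same way and not printed, holds 2, at 179 and 78 bases before the start. At least 1 match is found in 44.4% of 32851 RefSeq promoter windows, and at least 4 in 1.28% of them. The Mt4, Krt10 and Calm4 windows hold no TGANTCA, an AP-1 site that is found in 6.75% of windows. A match describes letters and not a site in use, and no match says only that these letters are not in this window.

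Other genes with large folds include enzymes, a protease inhibitor and a receptor. Serpinb12, a serpin protease inhibitor, had 166, 157, 208 and 126 CPM in members, against 9.44, 17.8, 15.8 and 23.1 CPM in the other wounded cells (log2 fold 3.51 ± 0.23). Them5, an acyl-CoA thioesterase, had 165, 166, 218 and 197 CPM in members, against 18.7, 23.3, 26.8 and 29.04 CPM in the other wounded cells (log2 fold 3.14 ± 0.08). Tdh (threonine dehydrogenase), Sdr16c6 (of the short-chain dehydrogenase family), Tprg and Oas1f (of the oligoadenylate synthetase family) rose with log2 folds of 2.86, 2.91, 3.11 and 3.35, higher in members in 4 of 4 pools. Ddr2, a receptor for fibrillar collagen, had 116, 179.9, 36.7 and 50.1 CPM in members, against 10.9, 20.1, 8.26 and 14.2 CPM in the other wounded cells, above the other cells of its pool each time and highest in members of 3 days.

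**Figure D2:**
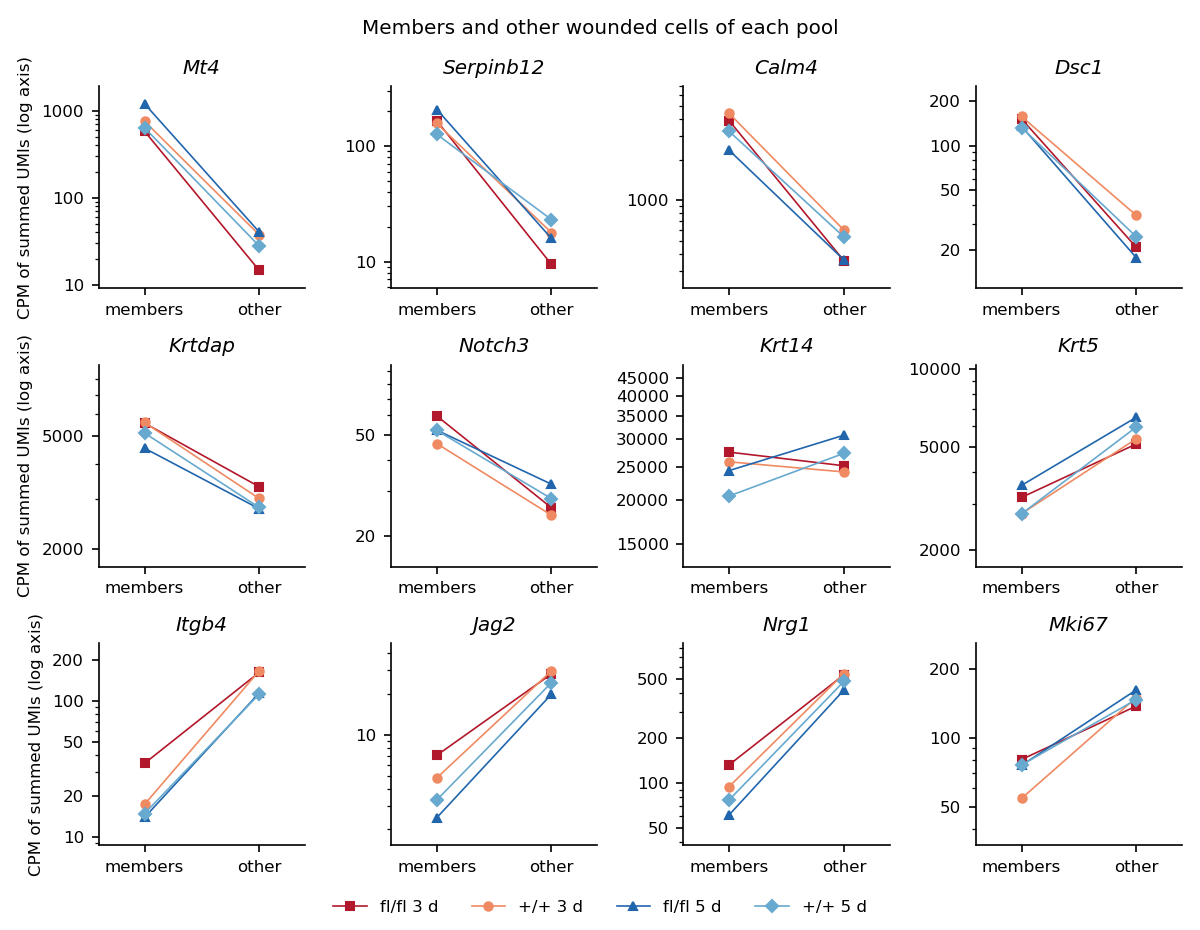
CPM of summed UMIs (log axis) of 12 genes in members, left, and in the other wounded cells, right, with 1 marker and line for each of the 4 pools. Mt4, Serpinb12, Calm4, Dsc1, Krtdap and Notch3 are higher in members in all 4 pools, Krt5, Itgb4, Jag2, Nrg1 and Mki67 are lower in all 4, and the lines of Krt14 cross.

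Transcription factors of epidermal differentiation rose in 13 of 26 cases and fell in 4 (median log2 fold 0.30). Pou2f3, an octamer-binding factor, had 49.4, 40.6, 38.1 and 52.6 CPM in members, against 17.1, 17.1, 13.8 and 18.1 CPM in the other wounded cells (log2 fold 1.65 ± 0.07, edgeR adjusted p = 3.19e-06). Cebpa, a factor of growth arrest and differentiation, had 105, 100.1, 85.1 and 87.3 CPM in members, against 45.5, 48.6, 35.03 and 36.5 CPM in the other wounded cells (log2 fold 1.40 ± 0.06). Grhl1, a regulator of desmosomal cadherins, rose with a log2 fold of 1.10 ± 0.06. Klf4, Zfp750, Maf, Tfap2a, Gata3, Elf3, Ehf and Barx2 were among the others that rose, and Ovol2, Id2 and Ets1 were among those that fell. Cebpb rose with a log2 fold of 0.33 ± 0.09, a call that was lost without the +/+ pool of 3 days (log2 fold 0.31), the fl/fl pool of 5 days (0.27) or the +/+ pool of 5 days (0.31). With plain library totals the counts were 9 higher and 7 lower.

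Of 13 Notch pathway genes 3 were higher in members and 5 lower, beside 22.2% and 24.3% of all genes tested. Leaving out single pools gave 2 or 3 higher and 3 or 4 lower. The receptor Notch3 had 59.7, 46.4, 52.4 and 52.3 CPM in members, against 25.8, 24.1, 31.999 and 28.04 CPM in the other wounded cells (log2 fold 1.12 ± 0.09, edgeR adjusted p = 3.39e-05). The ligand Jag2 had 7.06, 4.81, 2.45 and 3.31 CPM in members, against 28.2, 29.8, 19.99 and 24.4 CPM in the other wounded cells (log2 fold -2.56 ± 0.15, edgeR adjusted p = 9.16e-06). Notch3 was higher and Jag2 lower in members in 4 of 4 pools. Notch2 rose with a log2 fold of 0.61 ± 0.09. Numb, an inhibitor of Notch, rose with a log2 fold of 0.30 ± 0.08, a call that was lost without the fl/fl pool of 5 days (log2 fold 0.23) and without the +/+ pool of 5 days (0.28). The ligands Jag1 and Dll1, the nuclear partner Rbpj and the glycosyltransferase Lfng fell. Notch1 (log2 fold -0.25 ± 0.09, edgeR adjusted p = 0.0548) and the target Hes1 (0.01 ± 0.10, edgeR adjusted p = 0.945) did not pass the threshold.

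Of 19 desmosome and junction genes 11 rose and 6 fell (median log2 fold 0.33). Those that rose include the plaque proteins Dsp, Jup, Pkp1, Pkp3, Ppl and Evpl and the tight junction gene Cldn1, which had 73.2, 132, 109 and 126 CPM in members, against 46.1, 75.7, 54.7 and 78.5 CPM in the other wounded cells (log2 fold 1.01 ± 0.07). Those that fell are the cadherins Dsg2, Dsg3 and Dsc2, the claudins Cldn4 and Cldn7 and the connexin Gjb2. Dsg2 had 8.35, 5.20, 4.89 and 6.38 CPM in members, against 20.4, 23.1, 24.2 and 27.6 CPM in the other wounded cells (log2 fold -1.90 ± 0.14), so the desmogleins Dsg1a and Dsg2 moved in opposite directions.

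Of 20 barrier lipid genes 9 rose and 1 fell (median log2 fold 0.28). Acer1, an alkaline ceramidase, had 73.2, 64.5, 50.6 and 59.3 CPM in members, against 10.3, 12.1, 8.15 and 10.4 CPM in the other wounded cells (log2 fold 2.79 ± 0.08, edgeR adjusted p = 6.51e-07). Elovl4, which lengthens very long fatty acids, had 247, 297, 236 and 252 CPM in members, against 105, 131, 78.2 and 85.6 CPM in the other wounded cells (log2 fold 1.60 ± 0.08). Sptlc3, a subunit of serine palmitoyltransferase, rose with a log2 fold of 1.78 ± 0.15, as did the ceramide synthase Cers3 and the lipid transporter Abca12. The lipoxygenases Alox12b and Aloxe3 did not pass the threshold.

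Cholesterol synthesis moved by less but in nearly all its genes. Of 18 genes 17 rose and 0 fell, with a median log2 fold of 0.44, and Lss did not pass. Mvk, mevalonate kinase, had 125, 90.1, 78.8 and 79.4 CPM in members, against 48.5, 48.5, 51.9 and 45.5 CPM in the other wounded cells (log2 fold 1.09 ± 0.11, edgeR adjusted p = 1.10e-04). Fdft1, squalene synthase, had 74.5, 89.1, 119.8 and 117 CPM in members, against 61.5, 65.9, 64.9 and 60.3 CPM in the other wounded cells (log2 fold 0.88 ± 0.11). With plain library totals 8 of the 18 passed as higher, and the median was 0.23.

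Granular and cornified envelope genes passed in both directions. Of 28 listed, 18 were expressed enough to be tested, and 3 rose and 3 fell (median log2 fold 0.24). Of all genes tested 22.2% rose and 24.3% fell. Leaving out the fl/fl pool of 3 days gave 5 that rose, and leaving out the +/+ pool of 5 days gave 5 that fell. Casp14, the protease that processes filaggrin, had 53.3, 79.5, 60.2 and 55.2 CPM in members, against 12.4, 18.8, 12.7 and 13.7 CPM in the other wounded cells (log2 fold 2.32 ± 0.07, edgeR adjusted p = 8.45e-07). Tgm3, an epidermal transglutaminase, had 91.8, 161, 111 and 127 CPM in members, against 16.2, 27.9, 30.01 and 27.03 CPM in the other wounded cells (log2 fold 2.47 ± 0.12). Krt77 rose too. Crct1, of the cornified envelope cluster, and the late envelope gene Lce3c fell by 2.03 ± 0.31 and 3.65 ± 0.35 on the log2 scale. Ivl, involucrin, had 2.57, 5.58, 7.48 and 9.30 CPM in members, against 33.98, 35.6, 11.6 and 16.2 CPM in the other wounded cells (log2 fold -1.19 ± 0.34, edgeR adjusted p = 0.0202), a call that was lost without the +/+ pool of 3 days (log2 fold -0.84). Lor, loricrin, had 1.28, 2.69, 2.73 and 2.68 CPM in members, against 1.64, 3.17, 1.64 and 2.03 CPM in the other wounded cells (edgeR adjusted p = 0.124), and Flg2, Lce1a1, Lce1c, Lce1f and Lce1g were at 0 in all members.

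Genes that hold basal cells to the basement membrane were lower in members. Of 19 basal genes 17 fell and 0 rose (median log2 fold -2.03), and Krt14 and Wnt4 did not pass. Itgb4, the hemidesmosomal integrin, had 34.7, 17.3, 13.9 and 14.8 CPM in members, against 162, 166, 114 and 112 CPM in the other wounded cells (log2 fold -2.71 ± 0.13, edgeR adjusted p = 3.85e-06). Itga3, a laminin-binding integrin, had 18.6, 8.85, 3.81 and 6.54 CPM in members, against 75.1, 78.2, 47.8 and 50.5 CPM in the other wounded cells (log2 fold -2.84 ± 0.19). Its partner Itgb1 had 106, 40.2, 38.1 and 35.5 CPM in members, against 396, 405, 289 and 297 CPM in the other wounded cells (log2 fold -2.63 ± 0.19). The fl/fl pool of 3 days was the highest of the members in all of these, and 1 cell held 47.3% of the Itgb1 UMIs of its 31 members. Itga6, on whose protein all cells were sorted, had 141, 80.2, 70.9 and 98.6 CPM in members, against 454, 473, 354 and 387 CPM in the other wounded cells. At 5000 UMIs per cell an Itga6 UMI was seen in 29.03%, 23.8%, 25.7% and 29.7% of members, against 69.1%, 69.7%, 67.4% and 67.3% of the other wounded cells, and unthinned in 67.7%, 68.6%, 77.2% and 69.5% of members, against 96.5%, 95.8%, 96.2% and 92.96% of the other wounded cells.

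Of the basal keratins, Krt5 was lower in members and Krt14 did not pass the threshold. Krt5 had 3182, 2753, 3543 and 2749 CPM in members, against 5119, 5360.4, 6492 and 5952 CPM in the other wounded cells (log2 fold -0.70 ± 0.06, edgeR adjusted p = 6.19e-05). Its partner Krt14 had 27569, 25849, 24387 and 20594 CPM in members, against 25180.5, 24166, 30848 and 27348 CPM in the other wounded cells, with overlapping ranges (log2 fold 0.07 ± 0.10, edgeR adjusted p = 0.56). Its CPM was higher in members in both pools of 3 days and lower in both pools of 5 days. The difference of its log2 fold between the days was -0.52 ± 0.06 (edgeR adjusted p = 0.026), a call that was lost without the fl/fl pool of 5 days (-0.55) and without the +/+ pool of 5 days (-0.49). Of the wound keratins, Krt6b had 5127, 4939, 4088 and 3927 CPM in members, against 2783, 2775, 3416 and 3522 CPM in the other wounded cells (log2 fold 0.74 ± 0.13, edgeR adjusted p = 0.00172). Krt17 had 1043, 1005, 919 and 1058 CPM in members, against 3714, 3661, 2149.9 and 2570.1 CPM in the other wounded cells (log2 fold -1.34 ± 0.11, edgeR adjusted p = 4.07e-05). Krt6a and Krt16, stress keratins of wounds, did not pass (edgeR adjusted p = 0.463 and 0.0713), and Krt16 had 9637 to 12326 CPM in members, against 9428 to 11659 CPM in the other wounded cells. Krt16 passed as higher without the fl/fl pool of 5 days (log2 fold 0.33, edgeR adjusted p = 0.0114). Krt6a and Krt6b are close copies, so reads may be shared between them.

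Genes of the migrating wound edge fell in 22 of 23 cases (median log2 fold -1.89). Il24, a cytokine, had 8.99, 9.04, 8.56 and 9.14 CPM in members, against 177, 142, 76.1 and 75.2 CPM in the other wounded cells (log2 fold -3.23 ± 0.17, edgeR adjusted p = 5.55e-06). The matrix proteases Mmp3 and Mmp13 fell by 3.29 ± 0.20 and 2.75 ± 0.36 on the log2 scale, lower in 4 of 4 pools each. Nrg1, a growth factor of the EGF family, had 132, 94.5, 61.1 and 76.98 CPM in members, against 532, 541, 419 and 479 CPM in the other wounded cells (log2 fold -2.30 ± 0.11). Stfa3, a cysteine protease inhibitor, was the gene of this list that rose. Among 14 alarmin and inflammatory genes 7 fell and 2 rose, and 4 rose without the +/+ pool of 5 days. Slpi, a secreted protease inhibitor, had 17.3, 19.2, 22.1 and 27.7 CPM in members, against 246, 199.6, 125 and 142 CPM in the other wounded cells (log2 fold -2.63 ± 0.19). Il1rn, the interleukin 1 receptor antagonist, had 25.04, 54.3, 32.2 and 30.8 CPM in members, against 14.8, 18.4, 18.3 and 19.7 CPM in the other wounded cells (log2 fold 1.17 ± 0.16, edgeR adjusted p = 5.70e-04), while Il1a and Il1b fell.

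**Figure D3:**
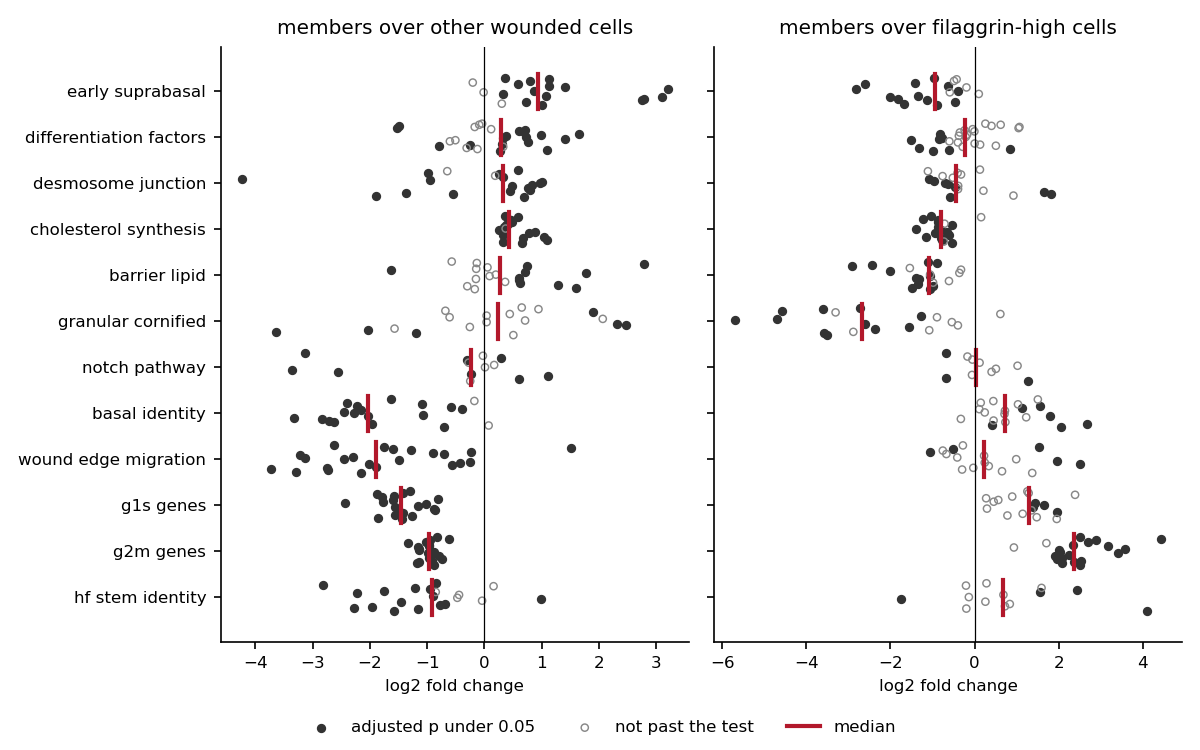
Log2 folds of the genes of 12 lists in members over the other wounded cells (left) and over filaggrin-high cells (right), with filled points past an edgeR adjusted p of 0.05 and a red line at each list's median. Early suprabasal and cholesterol synthesis genes lie mostly right of 0 on the left and left of 0 on the right, and G2/M genes the other way round.

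Cell cycle genes were lower in members but not silent. All 20 G1/S genes and all 20 G2/M genes tested fell (median log2 folds -1.46 and -0.97). Top2a, a topoisomerase of dividing cells, had 82.2, 72.5, 94.7 and 94.2 CPM in members, against 214, 229, 233 and 221 CPM in the other wounded cells (log2 fold -1.18 ± 0.07, edgeR adjusted p = 1.18e-05). Mki67, a marker of cycling cells, had 80.3, 54.3, 75.7 and 75.96 CPM in members, against 137, 149.6, 162 and 147 CPM in the other wounded cells (log2 fold -0.88 ± 0.09). Ccnd2, a G1 cyclin, had 7.71, 11.9, 5.40 and 9.85 CPM in members, against 66.8, 65.7, 32.2 and 55.4 CPM in the other wounded cells (log2 fold -2.36 ± 0.10). At 5000 UMIs per cell a UMI of Mki67 or Top2a was seen in 32.3%, 23.8%, 23.2% and 24.4% of members, against 42.6%, 44.2%, 48.04% and 41.2% of the other wounded cells. The difference was -18.1 ± 6.13 percentage points (SD, n = 4 pools), negative in 4 of 4 pools, and the exact two-sided sign-flip permutation test gave p = 0.13, the smallest that 4 pools allow. Unthinned shares were 74.2%, 69.5%, 63.8% and 63.4% of members, against 70.8%, 71.6%, 76.9% and 66.5% of the other wounded cells. Unwounded cells below the keratin limit gave 8.66% and 5.98% in fl/fl and +/+ at 5000 UMIs, and free RNA holds 164 CPM of Mki67 and 188 CPM of Top2a.

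Most follicle stem cell genes were lower in members. Of 20 follicle stem cell genes 14 fell, among them Lgr5, Lhx2, Nfatc1, Tcf7l1 and Cd34, and Cd200 rose (log2 fold 0.99 ± 0.21, edgeR adjusted p = 0.00545), though not in cells thinned to 5000 UMIs (log2 fold -0.082). Sox9, whose promoter drives the Cre, had 33.4, 43.5, 58.8 and 56.3 CPM in members, against 46.3, 65.6, 49.1 and 71.5 CPM in the other wounded cells and did not pass (edgeR adjusted p = 0.834). Fst, an activin antagonist, and Cdh13, a cadherin, fell by 2.93 ± 0.33 and 2.54 ± 0.10 on the log2 scale. Upper follicle genes counted 4 higher and 8 lower of 17 tested, beside 22.2% and 24.3% of all genes tested. Krt79, a keratin of the upper follicle, had 105, 251, 119 and 161 CPM in members, against 175, 324, 76.1 and 161 CPM in the other wounded cells (edgeR adjusted p = 0.611), and Cst6, a cysteine protease inhibitor, did not pass (edgeR adjusted p = 0.169) but was higher without the +/+ pool of 3 days (log2 fold 1.07, edgeR adjusted p = 2.73e-04).

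Markers of other cell types were low or shared by both classes. Summed over their lists of 7 and 9 genes, fibroblast markers reached 0.788 to 1.28 CPM in members, against 2.70 to 8.54 CPM in the other wounded cells, and immune markers 0.432 to 5.39 CPM in members, against 2.04 to 9.20 CPM in the other wounded cells, with Col3a1, Dcn, Lum and Cd3e at 0 in members. Merkel cell markers reached 0 to 3.39 CPM in members, against 8.23 to 13.9 CPM in the other wounded cells. Melanocyte markers reached 12.2 to 22.1 CPM in members, against 14.7 to 38.1 CPM in the other wounded cells, with Mitf alone at 10 CPM or more. Endothelial and mural markers reached 6.93 to 11.7 CPM in members, against 11.5 to 37.7 CPM in the other wounded cells. Inner sheath and hair markers reached 104 to 169 CPM in members, against 73.2 to 97.4 CPM in the other wounded cells, and of 13 only Tchh and Gata3 were at 10 CPM or more. Sebaceous markers reached 317 to 422 CPM in members, against 313 to 358 CPM in the other wounded cells, with 6 of 12 at 10 CPM or more in members (Scd1, Mgst1, Plin2, Fasn, Elovl5 and Acsbg1). The part of these cell types in the results was not tested.

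Members were not uniform, and their genes varied along the amount of Krt1 and Krt10. The cells were divided by the keratin sum, which the rule used, so these values carry no test. Ranges of 5000 to 10000, 10000 to 20000, 20000 to 40000 and at least 40000 CPM held 193, 225, 200 and 73 members. Over these ranges Mt4 stood at 259.9, 609, 1376 and 2282 CPM and Calm4 at 1734, 2293, 4280.2 and 6301 CPM. Krt5 stood at 4603, 3702, 1758 and 438 CPM and Krt14 at 30322, 26518, 17911 and 7363 CPM. The basal keratins were thus lowest in the cells with most Krt1 and Krt10. G2/M genes summed to 1059.7, 978, 150.3 and 128 CPM and G1/S genes to 413, 293, 175 and 139 CPM, so the mitotic genes were low from 20000 CPM of the pair upwards.

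Itgb4 and Jag2 were low below the keratin limit too, in cells with at least 500 CPM of the pair. Ranges of less than 500, 500 to 2500 and 2500 to 5000 CPM held 3481, 472 and 193 cells outside the rule. Over these ranges Itgb4 stood at 158, 45.1 and 26.9 CPM, and it stood at 25.3 CPM in the first range of members. Jag2 stood at 29.8, 5.97 and 5.60 CPM, and at 4.23 CPM in the first range of members. Krt5, in contrast, stood at 5992, 5731 and 5613 CPM outside the rule, and G2/M genes summed to 1623, 1495 and 1557 CPM. Median UMI counts of the 7 ranges lay between 39929 and 48655.

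**Figure D4:**
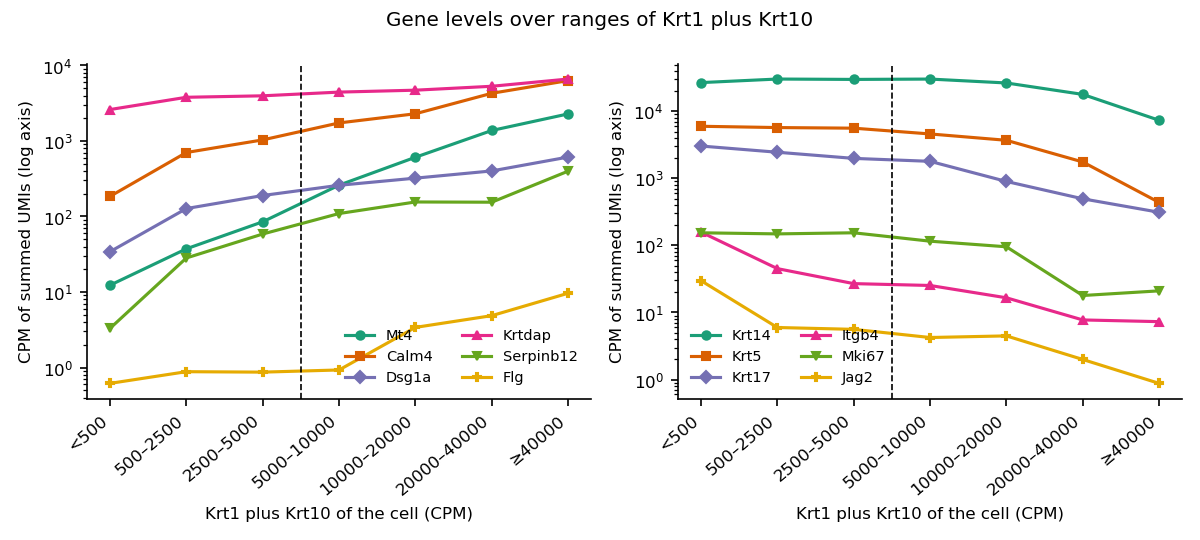
CPM of summed UMIs (log axis) over 7 ranges of Krt1 plus Krt10 CPM of the cell, for 6 genes that climb (left) and 6 that decline (right), with members right of the dashed line. Itgb4 and Jag2 decline left of the line, Krt5, Krt14 and Mki67 decline right of it, and Mt4 climbs throughout.

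Within single pools, Spearman's rho of a gene with the sum of Krt1 and Krt10 over 31, 105, 276 and 279 members is given as a description. The rule chose the cells by that sum and so limits its range, and cells of a pool share library and depth. Calm4 gave 0.64, 0.58, 0.44 and 0.55 and Mt4 0.29, 0.50, 0.50 and 0.42. Krt5 gave -0.56, -0.42, -0.60 and -0.67, and Lor, detected in few cells, gave 0.28, -0.17, 0.01 and 0.05.

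The 55 filaggrin-high cells share the keratin limit with the members and were compared over the 3 pools with at least 10 of them (19 in +/+ 3 d, 15 in fl/fl 5 d and 17 in +/+ 5 d). Members were lower in late envelope, barrier lipid and cholesterol genes and higher in mitotic genes and basal keratins. The classes also differ in keratin level, with a median Krt1 plus Krt10 of 42623 CPM in filaggrin-high cells against 16289 CPM in members. The part of that difference in the results was not tested. By edgeR's quasi-likelihood test over 9612 genes 10.3% passed, 3.46% as higher in members (333) and 6.86% as lower (659), 222 and 363 of them by 2-fold or more, and ranges over the 3 pools did not overlap for 39.4% of genes. Plain library totals gave 633 higher and 459 lower, since TMM adds -0.176 to each log2 ratio here. Lists of 3 values run through +/+ 3 d, fl/fl 5 d and +/+ 5 d. Krt1, with 11081, 10360.1 and 11582 CPM in members, against 22881, 18926 and 21767 CPM in filaggrin-high cells, and Flg, with 6.54, 2.16 and 4.25 CPM in members, against 1507, 991 and 3431 CPM in filaggrin-high cells, belong to the rule.

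Of 18 granular genes 11 fell and 0 rose in members against filaggrin-high cells (median log2 fold -2.67, against 0.03 for all genes). The filter on low counts keeps a gene that is high enough in 1 class alone. Genes near the floor in members, such as Hrnr and Lor, could enter through filaggrin-high cells and then only come out lower. The counts are therefore a description. With no filter on low counts 24 were tested, and 15 fell and 1 rose (median log2 fold -1.91, against 0.36 for all genes). Hrnr, hornerin, a filaggrin-like protein, had 1.35, 1.51 and 1.73 CPM in members, against 89.6, 12.6 and 166 CPM in filaggrin-high cells (log2 fold -5.69 ± 0.57, edgeR adjusted p = 9.47e-04). Klk7, a protease that sheds cornified cells, had 18.3, 15.8 and 46.1 CPM in members, against 459, 318 and 864 CPM in filaggrin-high cells (log2 fold -4.57 ± 0.14, edgeR adjusted p = 2.35e-06). Ivl had 5.58, 7.48 and 9.30 CPM in members, against 45.7, 59.6 and 147 CPM in filaggrin-high cells (log2 fold -3.58 ± 0.27). In each of these genes no pool of members reached a pool of filaggrin-high cells. Lor had 2.69, 2.73 and 2.68 CPM in members, against 71.8, 4.59 and 30.3 CPM in filaggrin-high cells (edgeR adjusted p = 0.00877), a call that was lost without the +/+ pool of 3 days (log2 fold -2.64). Hal, which makes urocanic acid from histidine, Akr1c18, a steroid dehydrogenase, and Gsdma, a gasdermin, fell by 3.78 ± 0.16, 3.84 ± 0.23 and 3.37 ± 0.26 on the log2 scale.

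Early suprabasal genes were lower in members than in filaggrin-high cells, with 13 of 18 lower and 0 higher (median log2 fold -0.93). Calm4 had 4408, 2347 and 3244 CPM in members, against 11669.9, 9759 and 13328 CPM in filaggrin-high cells (log2 fold -2.01 ± 0.13, edgeR adjusted p = 1.23e-04). Krtdap, Dsc1 and Sbsn fell by 0.89 ± 0.10, 1.82 ± 0.22 and 1.68 ± 0.20 on the log2 scale. Of 18 barrier lipid genes 12 fell (median log2 fold -1.08), among them Elovl4 (-1.49 ± 0.19) and now the lipoxygenase Alox12b (-2.91 ± 0.48). Of 18 cholesterol synthesis genes 15 fell (median log2 fold -0.79). The count was 3 when the +/+ pool of 3 days was left out, 8 without the +/+ pool of 5 days and 9 without cells called female. With plain library totals 9 cholesterol synthesis genes fell (median log2 fold -0.61), beside 11 early suprabasal and 11 barrier lipid genes. Of 26 factors Klf4, Grhl1, Grhl3, Hopx, Cebpa, Cebpb and Pou2f3 fell and Grhl2 rose. Without the +/+ pool of 3 days 4 fell and 0 rose, and without the +/+ pool of 5 days 5 fell and 0 rose.

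Of 20 G2/M genes 18 rose and 0 fell in members against filaggrin-high cells (median log2 fold 2.36). When the +/+ pool of 3 days was left out 11 rose. Of the 20 genes, 4 reached 10 CPM in filaggrin-high cells and 17 did in members. The filter could keep genes near the floor in filaggrin-high cells through members alone. Such genes could then only come out higher, so these counts are a description. The G2/M genes summed to 142, 146 and 44.8 CPM in filaggrin-high cells. In members of 20000 to 40000 and at least 40000 CPM of the keratin pair they summed to 150.3 and 128 CPM, so members of high keratin level lay near filaggrin-high cells. Top2a had 72.5, 94.7 and 94.2 CPM in members, against 18.7, 20.6 and 14.5 CPM in filaggrin-high cells (log2 fold 2.09 ± 0.20, edgeR adjusted p = 8.02e-04). Ube2c, a ubiquitin-conjugating enzyme of mitosis, had 60.6, 91.4 and 76.8 CPM in members, against 11.2, 8.03 and 7.27 CPM in filaggrin-high cells (log2 fold 2.89 ± 0.26). Of 17 G1/S genes Mcm6, Rrm1, Rrm2 and Tyms rose. The count was 0 without the +/+ pool of 3 days, 2 without the +/+ pool of 5 days and 7 without the fl/fl pool of 5 days. Of the 20 G1/S genes listed, 3 reached 10 CPM in filaggrin-high cells and 10 did in members, so the same limit holds.

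Of 18 basal genes 6 rose in members over filaggrin-high cells and 0 fell, and 12 rose when the fl/fl pool of 5 days was left out. Krt5 had 2753, 3543 and 2749 CPM in members, against 620.4, 1423 and 283 CPM in filaggrin-high cells (log2 fold 2.05 ± 0.28, edgeR adjusted p = 0.00337). In members of 20000 to 40000 and at least 40000 CPM of the keratin pair it stood at 1758 and 438 CPM. Krt15, a keratin of basal and follicle cells, had 148, 116 and 139.8 CPM in members, against 17.7, 14.9 and 24.2 CPM in filaggrin-high cells (log2 fold 2.67 ± 0.20). Itgb4 was low in both, with 17.3, 13.9 and 14.8 CPM in members, against 11.2, 18.3 and 1.21 CPM in filaggrin-high cells (edgeR adjusted p = 0.607). Notch1 had 40.02, 59.1 and 55.9 CPM in members, against 12.1, 27.5 and 18.2 CPM in filaggrin-high cells (log2 fold 1.28 ± 0.21, edgeR adjusted p = 0.00877), a call lost without the +/+ pool of 3 days (log2 fold 1.15). The count of all genes that passed was 363 without the +/+ pool of 3 days and 486 without the +/+ pool of 5 days.

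The member-over-other fold differed between the days for 32 of 13273 genes (0.241%), 16 with a positive (0.121%) and 16 with a negative difference of 5 minus 3 days, by an edgeR test of a class-by-day term that was added after the data were seen. Cnfn, cornifelin, had 65.5 and 113 CPM in members at 5 days, against 105 and 107 CPM in the other wounded cells, and 8.35 and 22.1 CPM in members at 3 days, against 290.4 and 353 CPM in the other wounded cells (fl/fl and +/+ each time). Its log2 fold differed by 3.90 ± 0.33 between the days (edgeR adjusted p = 0.00645), with 74.02% of its UMIs among +/+ members of 5 days in 1 cell. Ivl did likewise, with a difference of 2.11 ± 0.28 (edgeR adjusted p = 0.0368). Calml3, a calmodulin-like protein, had 285 and 249 CPM in members at 5 days, against 84.1 and 96.3 CPM in the other wounded cells, and 126 and 106 CPM in members at 3 days, against 111 and 107 CPM in the other wounded cells. Its excess in members is thus visible in the values of 5 days (difference 1.46 ± 0.15, edgeR adjusted p = 0.0176). The excess of Krt6b and Ddr2 in members was smaller at 5 days (differences -0.68 ± 0.08 and -1.32 ± 0.15, both with an edgeR adjusted p of 0.0239). The call of Krt6b was lost without the fl/fl pool of 5 days (-0.73) and without the +/+ pool of 5 days (-0.64). The number of genes was 275 without fl/fl 3 d, 400 without +/+ 3 d, 26 without fl/fl 5 d and 57 without +/+ 5 d.

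**Figure D5:**
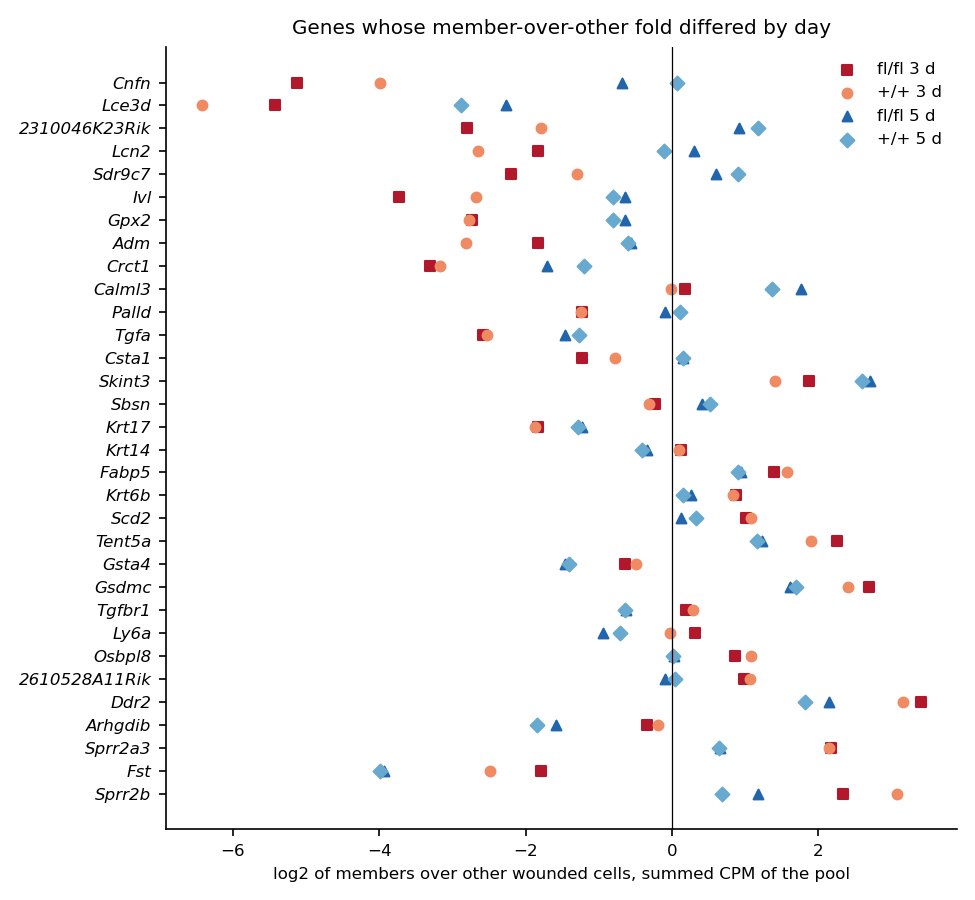
Log2 of members over the other wounded cells in each of the 4 pools (markers) for the 32 genes whose fold differed between the days by edgeR. Cnfn, Lce3d and Ivl lie far left of 0 at 3 days and nearer to 0 at 5 days, Ddr2 lies right of 0 on both days and less so at 5 days, and the pools of 1 day lie together for most genes.

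Within members, 5 days over 3 days with genotype as a block gave 13 higher (0.111%) and 25 lower (0.214%) of 11705 genes, or 0.325%, by an edgeR test that was added after the data were seen and has 1 residual degree of freedom. Gsta4, a glutathione transferase, had 162 and 172 CPM in members at 5 days, against 503 and 464 CPM in members at 3 days (log2 fold -1.56 ± 0.10, edgeR adjusted p = 0.00496). Palld, an actin-binding scaffold protein, had 123 and 151 CPM at 5 days, against 48.8 and 54.3 CPM at 3 days (log2 fold 1.39 ± 0.12, edgeR adjusted p = 0.00901). Tchh, trichohyalin, had 103 and 68.9 CPM at 5 days, against 22.5 and 28.7 CPM at 3 days (log2 fold 1.60 ± 0.22, edgeR adjusted p = 0.0421). The days do not overlap in these genes, but the genes were chosen because they passed this test, so the separation adds no support to it. Calm4 and Lgals7 fell by less (-0.61 ± 0.06 and -0.21 ± 0.03 on the log2 scale), as did Krt6a and Krt6b. Mt4 (log2 fold 0.37 ± 0.26, edgeR adjusted p = 0.681) and Mki67 (0.20 ± 0.16, edgeR adjusted p = 0.722) did not pass. The count depended on the cells kept, at 1 gene with the keratin limit at 10000 CPM and 257 genes without cells called female.

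In members of single genotypes, without a test, 40 of 2529 genes of at least 50 CPM were 2-fold higher (1.58%) and 18 lower (0.712%) at 5 days in fl/fl, and 7 of 2540 higher (0.276%) and 21 lower (0.827%) in +/+. Ddr2 stood at 36.7 CPM at 5 days against 116 CPM at 3 days in fl/fl, and at 50.1 CPM against 179.9 CPM in +/+. Robo1, an axon guidance receptor, stood at 191 CPM at 5 days against 40.2 CPM at 3 days in +/+. The alarmin S100a9 had the opposite direction in the genotypes. It stood at 171 CPM at 5 days against 44.3 CPM at 3 days in fl/fl, and at 149.6 CPM at 5 days against 549.9 CPM at 3 days in +/+, where 1 cell held 50.8% of the UMIs of 3 days.

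Between genotypes the targeted gene comes first. Phgdh had 49.4 CPM in fl/fl members and 112 CPM in +/+ members at 3 days (log2 ratio -1.18, exact interval -1.55 to -0.84), with a UMI in 9 of 31 and 98 of 105 cells. At 5 days it had 13.96 CPM in fl/fl members and 116 CPM in +/+ members (log2 ratio -3.06, -3.28 to -2.84), with a UMI in 64 of 276 and 239 of 279 cells. It was lower in fl/fl at both days, and in members of 3 days 1 cell held 20.8% of the fl/fl UMIs. At 5000 UMIs per cell a Phgdh UMI was seen in 16.1%, 42.9%, 5.43% and 39.1% of members, against 4.53%, 37.5%, 9.57% and 45.01% of the other wounded cells.

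At 5 days, where both pools are large, members of the genotypes differed 2-fold in few genes. Of 2572 genes of at least 50 CPM, 1 was 2-fold higher (0.0389%) and 4 were lower (0.156%) in fl/fl members. Among those lower were Phgdh, Clca3a2, of the calcium-activated chloride channel regulator family (39.8 CPM in fl/fl and 127 CPM in +/+ members), and Klk10, a kallikrein (41.9 CPM in fl/fl and 85.6 CPM in +/+ members). Mt4 stood at 1199.9 CPM in fl/fl members and 637 CPM in +/+ members (log2 ratio 0.91, 0.88 to 0.95). At 3 days it lay the other way, at 581 CPM in fl/fl members and 756 CPM in +/+ members. The metallothionein Mt2 and carbonic anhydrase Car2 stood at 655 and 78.2 CPM in fl/fl members, against 394 and 40.3 CPM in +/+ members.

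At 3 days, with 31 fl/fl members, 9 of 2516 genes were 2-fold higher (0.358%) and 41 lower (1.63%) in fl/fl members. The lower ones include S100a9 (44.3 CPM in fl/fl and 549.9 CPM in +/+ members) and the serpin Serpinb2 (231 CPM in fl/fl and 717 CPM in +/+ members). The S100a9 value of +/+ members rests largely on 1 cell, as given above. Those higher include Itgb1, Odc1 and Ctsl, of whose fl/fl UMIs 1 cell held 47.3%, 75.6% and 59.6%.

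An edgeR test of genotype within members, with day as a block, was added after the data were seen and has 1 residual degree of freedom. Over both days 3 of 11705 genes passed it as lower in fl/fl members (0.0256%) and 0 as higher. They were Stxbp5l, Sprr2i and Xist, which follows the sex of the cells. Stxbp5l had 0.642 and 0.863 CPM in fl/fl members of 3 and 5 days, against 53.7 and 31.3 CPM in +/+ members, and it lay alike in the other wounded cells, at 0.797 and 0.994 CPM in fl/fl and 35.6 and 46.5 CPM in +/+. Of the Sprr2i UMIs of +/+ members, 1 cell held 87.8% at 3 days and 1 cell 96.6% at 5 days. Phgdh itself had a log2 fold of -2.28 ± 0.37 and an adjusted p of 0.382 in this edgeR fit. A gene that does not pass it is thus not shown to be alike in the genotypes. The member-over-other fold differed between genotypes for 0 of 13273 genes by edgeR, with 308 at an unadjusted p under 0.05.

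Of 12 serine and one-carbon genes 3 were higher and 5 lower in members than in the other wounded cells, beside 22.2% and 24.3% of all genes tested. Psph, which makes serine in the last step, had 155, 151, 206 and 192 CPM in members, against 107, 110.1, 112 and 114 CPM in the other wounded cells (log2 fold 0.87 ± 0.08, edgeR adjusted p = 5.34e-05). It was higher in members of both genotypes. Psat1, the step before, had 95.7, 76.2, 94.96 and 90.1 CPM in members, against 81.2, 78.6, 86.1 and 79.1 CPM in the other wounded cells (log2 fold 0.33 ± 0.06, edgeR adjusted p = 0.00236). That fold includes the 0.205 that TMM adds in this comparison, and the CPM of Psat1 was lower in members in the +/+ pool of 3 days. Phgdh did not pass (edgeR adjusted p = 0.616). Mthfd1, Mthfd1l, Shmt1 and Tyms, genes of one-carbon and nucleotide metabolism, were among those that fell. Of 18 targets of the integrated stress response 4 rose and 5 fell, beside the same 22.2% and 24.3% of all genes tested. Plain library totals gave 1 and 9, and leaving out single pools gave 1 to 3 and 2 to 4. Slc7a11, the cystine importer, had 28.9, 26.4, 22.5 and 13.8 CPM in members, against 6.9997, 4.65, 6.27 and 6.57 CPM in the other wounded cells (log2 fold 2.04 ± 0.22, edgeR adjusted p = 1.66e-04).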

How the data were processed

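Single-cell 3′ libraries (reads of 28 and 90 bp) were processed by the authors with Cell Ranger 7.1.0 on mm10 and with Seurat 4.3.0, per the submitters' processing notes. The authors deposited raw UMI counts of 32285 genes and 6 hashtags over 2997303 barcodes, with 317114087 gene and 9694124 hashtag UMIs; their Seurat objects are not used here. From these counts, 8465 barcodes had at least 5000 UMIs, 6407 of them at most 10% mitochondrial UMIs, and 5666 a hashtag with at least 20 UMIs and 70% of the barcode's hashtag UMIs; 741 stayed unassigned. Hashtags named cKO were read as Phgdh fl/fl. No cell annotation of the authors was used and no doublet caller was run.

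UMIs were summed per pool and class and tested with edgeR 4.0.16 (R 4.3.3; TMM, filterByExpr, quasi-likelihood F-test, pool as block, adjusted p under 0.05 by Benjamini-Hochberg). DESeq2 1.42.0 was an alternative. Genotype and day within members had 1 pool a condition, so ratios carry exact conditional binomial intervals of counting error; 4 edgeR tests (class by day, class by genotype, and day and genotype within members) were added after seeing the data. Shares carry exact Clopper-Pearson intervals, and thinned values use 5000 UMIs per cell (Python 3.11.15, numpy 2.4.6, pandas 2.3.3, scipy 1.17.1; figures with matplotlib 3.10.9). The edgeR script was tested on simulated data. Promoter windows are from RefSeq (GRCm38.p6), and motifs were searched on both strands.

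The members and the 27 gene lists were chosen with earlier results of these data known. Genes were named by a rule: the 10 highest and 10 lowest folds past the threshold with at least 50 CPM in 1 class and 1 sign in every pool, up to 4 genes of each list with the largest folds, and a set of markers. Genes named as members of a list that passed or did not pass, and those of the added tests, fall outside it and were chosen after their values were seen. Alternatives were plain library totals, no filter on low counts, thinning, other limits for keratins, Flg, mitochondria and hashtags, leaving out each pool, the cells of highest UMI count, and cells called female.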

Additional observations from a re-analysis of the deposited data

Results flagged for a closer look

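Cells outside the members also met the limits on Krt1, Krt10 and Flg. These were 52 of 741 barcodes with no assigned hashtag (7.02%, exact 95% interval 5.29 to 9.10), with a median of 53279 UMIs against 36322 UMIs over all unassigned barcodes, and 3 unwounded fl/fl cells and 1 unwounded +/+ cell. Whether the unassigned ones hold more than 1 cell was not tested.

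For 32 genes the member-over-other fold differed between 5 and 3 days by edgeR's quasi-likelihood test of the class-by-day term. The differences are 5 minus 3 days on the log2 scale, and a positive one also arises where members lie below the other wounded cells on both days and less so at 5 days, as for Lce3d and Crct1. The difference was positive for Cnfn (3.90), Lce3d (3.49), Sdr9c7 (2.16), Ivl (2.11), Crct1 (1.72), Csta1 (1.12) and Sbsn (0.71). It was also positive for 2310046K23Rik (3.04), Lcn2 (2.49), Gpx2 (1.99), Adm (1.93), Calml3 (1.46), Palld (1.21), Tgfa (1.13), Skint3 (1.02) and Krt17 (0.57). It was negative for Sprr2b (-1.92), Fst (-1.77), Sprr2a3 (-1.54), Arhgdib (-1.51), Ddr2 (-1.32), 2610528A11Rik (-1.08), Osbpl8 (-1.001) and Ly6a (-0.99). It was also negative for Tgfbr1 (-0.93), Gsdmc (-0.92), Gsta4 (-0.90), Tent5a (-0.90), Scd2 (-0.85), Krt6b (-0.68), Fabp5 (-0.59) and Krt14 (-0.52). The Sprr2 genes are close copies of each other, so their reads may be shared.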

How the results depend on the processing

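Members over the other wounded cells passed in 6176 genes, in 5688 by DESeq2, in 3201 after thinning to 5000 UMIs per cell, and in 4530 to 6158 when single pools were left out. Members over filaggrin-high cells passed in 992 genes, in 1596 with no filter on low counts, in 295 after thinning, in 1490 with the keratin limit at 2500 CPM, and in 363 to 1299 when single pools were left out. The fold differed by day for 32 genes, and for 450 with no filter, 18 with at most 5% mitochondrial UMIs, 13 with the keratin limit at 10000 CPM, 9 with Flg below 200 CPM, and 26 to 400 without single pools. It differed by genotype for 0 genes (308 at an unadjusted p under 0.05), for 87 with no filter, 2 after thinning, and 0 to 11 without single pools. Within members 38 genes differed by day, and 58 with plain library totals, 507 with no filter, 13 after thinning, 98 at 5% mitochondrial UMIs, 11 at 90% hashtag share, 122 and 1 with the keratin limit at 2500 and 10000 CPM, 18 and 252 with Flg below 50 and 200 CPM, 10 without the highest UMI counts and 257 without cells called female. By genotype 3 genes differed, and 6 with plain library totals, 159 with no filter, 11 at 5% mitochondrial UMIs, 8 and 1 with the keratin limit at 2500 and 10000 CPM and 24 with Flg below 200 CPM. The cause of these changes was not tested.

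The share of members with the keratin limit at 10000 CPM was 3.68% in fl/fl 3 d, 5.65% in +/+ 3 d, 13.6% in fl/fl 5 d and 13.1% in +/+ 5 d. At 2500 CPM it was 10.2% in +/+ 3 d, 23.4% in fl/fl 5 d and 23.5% in +/+ 5 d, and at 90% hashtag share it was 20.9% in fl/fl 5 d. Genes past 2-fold between genotypes numbered 50 at 3 days and 166 after thinning. At 5 days they numbered 5, and 3 and 8 with the keratin limit at 2500 and 10000 CPM and 8 without the highest UMI counts. In fl/fl, 58 genes were past 2-fold between the days and 180 after thinning.

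Sign changes were counted only for named genes that passed the test in the main or alternative fit, or were past 2-fold between conditions. Few of these genes changed sign. They were Cd200 in members over the other wounded cells after thinning (log2 fold -0.082), Krt6b in members over filaggrin-high cells at 90% hashtag share (0.058), and Sprr2i within members by day with the keratin limit at 10000 CPM (-0.30). Between fl/fl and +/+ members of 3 days the sign changed after thinning for Lor (1.76), Ivl (0.18) and Krt79 (0.80), with the keratin limit at 2500 CPM for Krt79 (0.66), and at 10000 CPM for Lor (0.22), Odc1 (-0.66) and Krt79 (0.68). Between 5 and 3 days in fl/fl it changed for Ivl after thinning (-0.35) and for Cd34 at 10000 CPM (0.44). In +/+ it changed for Cd34 after thinning (0.91), at 90% hashtag share (0.23) and without cells called female (0.18). Direction was compared only for genes that passed in either fit. Of 2050 values of 114 named genes over the other wounded cells, 1992 kept their side of the threshold. Over filaggrin-high cells 1461 of 1648 did. For the fold by day 339 of 510 did and 171 no longer passed, and for the days within members 292 of 442 did and 149 no longer passed. Without cells called female the genotypes differed in 4 genes over both days, and in 47 and 5 genes past 2-fold at 3 and 5 days. No paired analysis between conditions was possible because the labels give no replicate numbers and each condition is 1 pool, while members and other cells of a pool were paired by the pool block. With 1 pool a condition and 31 members in fl/fl 3 d, a single cell can hold most UMIs of a gene.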
